A study of Mus musculus with 6 samples.

Results

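The genes described here encode the enzymes that add, remove and read histone and DNA marks, together with the ATP-driven remodelers and the core subunits that work with them. They were taken by name from the count table: protein-coding genes outside chromosomes X and Y whose symbols belong to the Hdac, Sirt, Kat, Kdm, Kmt2, Kmt5, Setd, Ezh, Dnmt, Tet, Prmt, Smarc, Chd or Brd families, plus Ep300, Crebbp, Eed and Suz12. This gave 97 genes out of 41721 in the table, of which 19697 were protein-coding and autosomal. The rule itself uses no measured value, but these genes were chosen with earlier results of these data known. Of the 97 genes, 93 passed the filter on low counts and were tested.

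RNA was sequenced from vascular smooth muscle cells of the mouse abdominal aorta in 6 libraries, 3 from Pdk4fl/fl and 3 from Pdk4SMKO mice. Pdk4 encodes a kinase that switches off the pyruvate dehydrogenase complex, the mitochondrial source of acetyl-CoA from pyruvate. Per the study's methods, loxP sites flank exons 4 to 6 of Pdk4 in both genotypes, and Pdk4SMKO mice also carry Myh11-CreERT2, a Y-linked transgene in which a smooth muscle promoter drives a tamoxifen-dependent Cre. Mice of both genotypes were males on a C57BL/6J background, 10 weeks old, and had received tamoxifen for 5 days. Cells released by collagenase were grown to passages 4 to 8 and treated with angiotensin II (Ang II), the peptide used to model aortic aneurysm, at 1 μM for 48 h, so that no library came from untreated cells. The study's figure legends call the 3 samples of a genotype biological replicates. Neither they nor the labels say whether the 3 libraries of a genotype came from separate mice or separate cultures. The p-values therefore measure the spread between these libraries, which may be technical.

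Chromatin enzymes consume metabolites: acetyltransferases use acetyl-CoA, sirtuins use NAD+, methyltransferases use S-adenosylmethionine, the JmjC demethylases and TET enzymes use 2-oxoglutarate and iron, and remodelers use ATP. Many occur as paralogs that occupy the same place in a complex and exclude each other, such as the BRM and BRG1 ATPases of the SWI/SNF complex. In smooth muscle, class IIa histone deacetylases (HDACs), TET2 and the SWI/SNF complex are known for their part in the choice between the contractile and the dedifferentiated state.

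Between 16526044 and 22481670 reads were counted per library, and the chromatin genes took 0.711% to 0.941% of them. Pdk4 (chromosome 6 from 2392986 to 2408102) had 570, 639 and 421 counts in Pdk4fl/fl and 110, 182 and 141 in Pdk4SMKO libraries, a log2 fold change of -2.34 (SE 0.22, adjusted p = 4.49e-06). The libraries separated widely by genotype, with a Pearson correlation of at least 0.986 within and at most 0.791 between genotypes. Xist, the RNA of the inactive X chromosome of female cells, had 3, 4 and 5 counts in Pdk4fl/fl and 610, 347 and 321 in Pdk4SMKO libraries, which goes against the male mice of the methods for Pdk4SMKO. The sex of the cells and the genotype cannot be told apart here. Of 8 smooth muscle markers, all were tested, 4 were called higher and 3 lower, and their summed level was 785 to 811 TMM-scaled counts (CPM, scaled by the trimmed mean of M-values to a common library total) in Pdk4fl/fl and 723 to 954 in Pdk4SMKO libraries. Myh11, the defining myosin, was at 0.613 CPM in Pdk4fl/fl and 2.39 CPM in Pdk4SMKO cells. Acta2 rose from 233 to 701 CPM, Lmod1 from 1.93 to 9.81 CPM and Des from 0.129 to 0.967 CPM. In the other direction, Tagln fell from 253 to 52.7 CPM, Smtn from 280 to 57.5 CPM and Cnn1 from 19.5 to 6.88 CPM. Of 8 mesothelial markers, 7 were tested and all 7 were higher, with a sum of 74.2 to 100 CPM in Pdk4fl/fl and 723 to 1325 in Pdk4SMKO libraries and none at 0. Of 8 fibroblast markers, 4 were higher and 1 lower, with a sum of 629 to 858 against 5174 to 7079 CPM and none at 0. Most of that sum was Col1a1, at 620 against 5901 CPM. Lum, Dcn and Mfap5 also rose, Dpt fell, and Pdgfra, Pi16 and Scara5 were not called. Of 8 macrophage markers, 7 were tested, 6 were higher and 1 lower, the sum was 22.7 to 40.1 against 62.8 to 64.1 CPM, and Adgre1, C1qa, C1qb and Tyrobp were at 0 in Pdk4fl/fl libraries. Of 8 endothelial markers, 3 were tested and all 3 were lower, with a sum of 17.4 to 26.3 against 2.94 to 5.66 CPM and Tie1 at 0 in Pdk4fl/fl libraries. Of 8 proliferation markers, 2 were higher and 3 lower, and their sum was 1230 to 1341 CPM in Pdk4fl/fl and 381 to 587 in Pdk4SMKO libraries, with none at 0. The part of these differences in the results below was not tested, and fewer cells of a type cannot be told apart from less RNA per cell.

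Loss of Pdk4 in these cultures came with changes in both directions across the chromatin genes. A gene was called when its adjusted p was under 0.05 and its level differed at least 2-fold, and on this rule 19 chromatin genes were higher and 23 lower in Pdk4SMKO cells while 51 were not called. The 42 calls are 45.2% of the 93 tested, against 59.3% of all 14085 genes tested. The share called higher was 20.4% against 32.8% of all genes, and the share called lower was 24.7% against 26.5%. On the adjusted p alone, 32 were higher and 43 lower, 80.6% in all, against 79.1% of all genes (42% higher and 37.1% lower). The 3 libraries of a genotype did not overlap with the other 3 for 75 of the 93, 80.6%, against 81.8% of all genes. The median log2 fold change was -0.22 for the chromatin genes and 0.12 for all genes, and the median size of the change regardless of sign was 0.92 against 1.30. The shares on the adjusted p alone and without overlap thus lay near the background, and the share past the 2-fold limit lay below it.

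The direction of small changes depended on the scaling between libraries. The TMM scaling factors were 0.784 to 0.838 in Pdk4fl/fl and 1.21 to 1.26 in Pdk4SMKO libraries. With library size alone, the median of all genes moved from 0.12 to 0.72 and that of the chromatin genes from -0.22 to 0.39, and the calls became 32 higher and 12 lower, beside 6184 higher and 2390 lower among all genes. All 42 called chromatin genes kept their sign under the 3 other scalings tried, and 31 kept their call with library size alone. The 11 calls lost were all of lower genes, Sirt2, Kat6a, Kat8, Kdm5b, Kmt2a, Setd2, Setd5, Suz12, Chd6 and Brd2 among them. The 13 calls gained were all of higher genes: Hdac2, Kat6b, Kdm3b, Kdm4a, Kdm7a, Prmt2, Prmt7, Smarcad1, Smarcal1, Chd3, Chd4, Chd8 and Chd9. Statements below that a gene was called, or stayed under the 2-fold limit, hold for the TMM scaling.

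**Figure D1:**
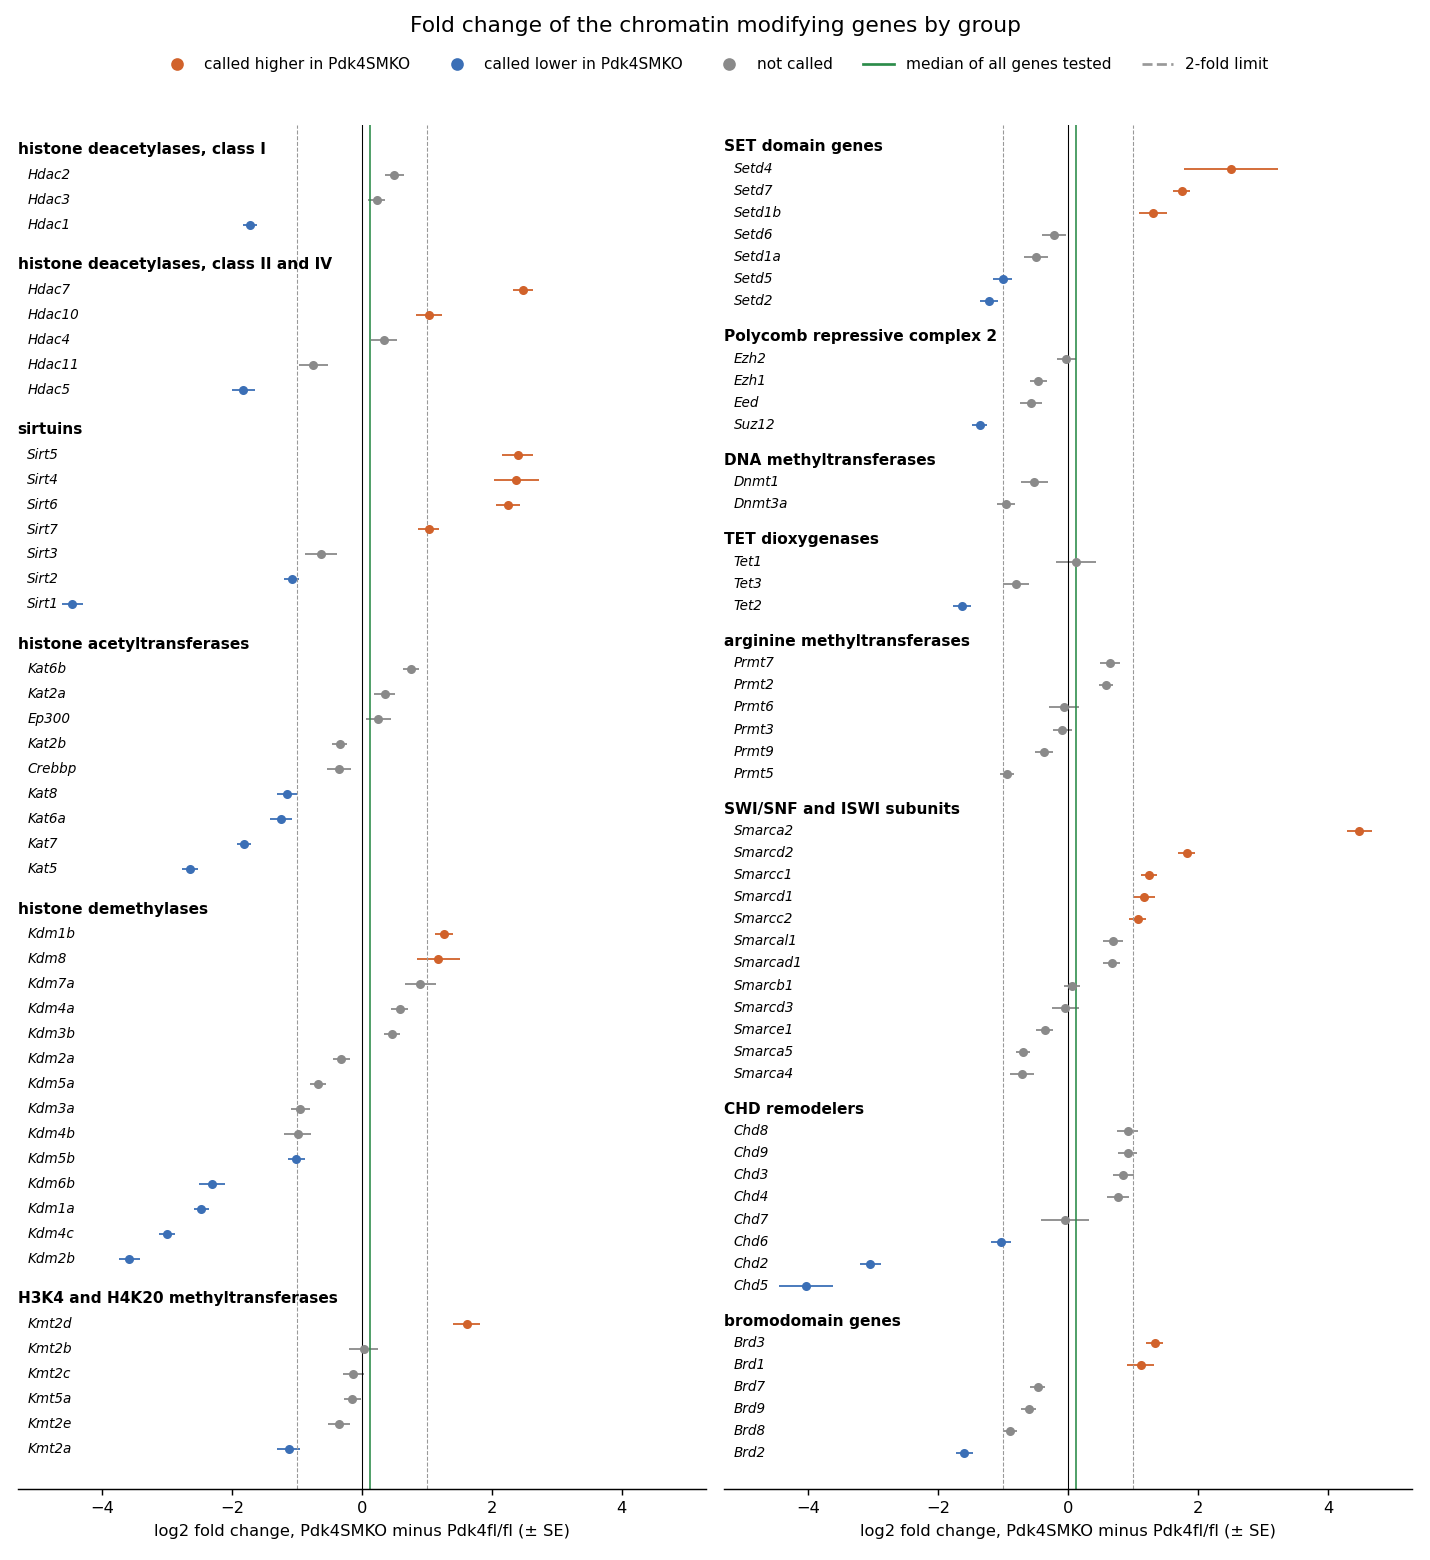
Log2 fold change with its standard error (horizontal axis, Pdk4SMKO minus Pdk4fl/fl, 3 libraries per genotype) of 92 of the 93 tested chromatin genes, sorted within their groups. Points are orange where called higher, blue where called lower and grey otherwise. Dashed lines mark the 2-fold limit and the green line the median of all genes (0.12). Calls lie on either side in 6 of the 14 groups, and Smarca2 at 4.48 and Sirt1 at -4.46 are the ends.

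Of the 14 functional groups, 6 held calls in both directions, 5 only lower calls, 1 only higher calls and 2 no call. With library size alone, 6 groups held calls in both directions, 1 only lower calls, 5 only higher calls and 2 no call, so that the tally of groups with 1 direction turned. Grouped by the metabolite they use, the 7 NAD+-dependent sirtuins had 4 higher and 2 lower calls and the 9 acetyl-CoA-dependent acetyltransferases 0 higher and 4 lower. The 15 tested enzymes that use 2-oxoglutarate had 1 higher and 5 lower calls, the 23 that belong to methyltransferase families 4 higher and 3 lower, and the 13 that hydrolyse ATP 1 higher and 3 lower. The 8 zinc-dependent HDACs had 2 higher and 2 lower calls. Against 59.3% of all genes, the share called was 85.7% of the sirtuins, 44.4% of the acetyltransferases and 40% of the users of 2-oxoglutarate. It was 30.4% of the methyltransferase families, 30.8% of the ATP users and 50% of the zinc-dependent HDACs. With library size alone, the tallies by metabolite became 4 higher and 1 lower for the sirtuins and 1 higher and 2 lower for the acetyltransferases. They became 4 each way for the users of 2-oxoglutarate and 6 higher and 0 lower for the methyltransferase families. The ATP users then had 7 higher and 2 lower calls and the zinc-dependent HDACs 3 higher and 2 lower. Under that scaling 60.9% of all genes were called, and 72.1% of these calls were higher, against 55.3% under TMM. The share called was 71.4% of the sirtuins, 33.3% of the acetyltransferases and 53.3% of the users of 2-oxoglutarate. It was 26.1% of the methyltransferase families, 69.2% of the ATP users and 62.5% of the zinc-dependent HDACs.

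The largest rise was that of Smarca2, which encodes BRM, an ATPase that drives SWI/SNF complexes (chromosome 19 from 25651828 to 25843274, + strand, in the coordinates of the deposited table). Its level was 6.20, 4.45 and 4.31 CPM in the Pdk4fl/fl libraries and 93.0, 126 and 117 CPM in the Pdk4SMKO libraries. The genotypes did not overlap, and the mean rose from 4.99 ± 1.05 to 112 ± 16.8 CPM (SD, n = 3 each), a log2 fold change of 4.48 (SE 0.19, adjusted p = 3.22e-08). Smarca4, which encodes BRG1, the alternative ATPase of the same complexes, was at 341, 326 and 214 CPM in Pdk4fl/fl and 199, 181 and 158 CPM in Pdk4SMKO libraries. Its log2 fold change was -0.71 (SE 0.18, adjusted p = 0.00419), under the 2-fold limit. Per length of transcript, Smarca2 made up 1.41% ± 0.27 of the reads of the pair in Pdk4fl/fl and 34.0% ± 5.43 in Pdk4SMKO cells. The summed level of the pair, in CPM per kilobase of gene length (RPKM), was 46.0 ± 10.7 against 42.0 ± 2.43, with overlap, so that the makeup of the pair differed far more than its total. With library size alone, that sum was 1.38-fold higher in Pdk4SMKO cells, without overlap.

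To show the sequence around the starts of the pair and of Sirt1, the gene with the largest fall, the 250 bases before each start are printed from RefSeq's promoter table (build GRCm38.p6), 5′ to 3′ on the strand of the gene. Capitals mark every match to GGGCGG, the GC box bound by Sp1, or to CACGTG, the E-box bound by Myc, on either strand. The motifs do not overlap each other in these sequences, but copies of GGGCGG overlap in Sirt1.
Smarca2 promoter, chr19:26604910-26605159, + strand: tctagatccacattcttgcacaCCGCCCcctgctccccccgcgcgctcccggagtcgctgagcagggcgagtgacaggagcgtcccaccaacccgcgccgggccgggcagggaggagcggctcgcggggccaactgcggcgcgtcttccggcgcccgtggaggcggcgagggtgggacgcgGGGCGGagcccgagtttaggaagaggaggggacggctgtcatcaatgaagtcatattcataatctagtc
Smarca4 promoter, chr9:21615919-21616168, + strand: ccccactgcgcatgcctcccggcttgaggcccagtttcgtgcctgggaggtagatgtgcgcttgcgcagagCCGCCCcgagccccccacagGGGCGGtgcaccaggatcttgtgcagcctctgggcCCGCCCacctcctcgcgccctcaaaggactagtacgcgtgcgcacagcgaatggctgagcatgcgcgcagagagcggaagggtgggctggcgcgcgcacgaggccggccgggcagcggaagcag
Sirt1 promoter, chr10:63339036-63339285, - strand: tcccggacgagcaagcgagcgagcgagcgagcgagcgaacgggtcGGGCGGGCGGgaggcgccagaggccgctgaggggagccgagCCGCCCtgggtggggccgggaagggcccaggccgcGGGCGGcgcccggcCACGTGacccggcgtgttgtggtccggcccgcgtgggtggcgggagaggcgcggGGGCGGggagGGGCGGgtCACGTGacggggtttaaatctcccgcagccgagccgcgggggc

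Smarca2 held 28 CG dinucleotides in this window, Smarca4 25 and Sirt1 39, so that the gene that rose most, its paralog and the gene that fell most all start in CpG-rich sequence. Smarca2 had 2 GC boxes, Smarca4 had 3 and Sirt1 had 6, with 2 E-boxes in Sirt1 alone among these 3. Of the 97 chromatin genes, 79 matched an entry of the table by symbol. Their median ratio of observed to expected CpG was 0.798, against 0.378 over all 27025 promoters, and the ratio exceeded 0.6 in 83.5% of them against 34.5%. It exceeded 0.6 in 82.4% of the 17 genes called higher, 77.8% of the 18 called lower and 90% of the 40 not called. The GC box GGGCGG was found in 64.6% of the chromatin gene promoters and 32.9% of all promoters, in 12 of the 17 higher and 11 of the 18 lower. The CCAAT box (CCAAT) was in 32.9% against 34.5% of all promoters, in 3 of the 17 higher and 8 of the 18 lower. CACGTG was in 3.80% against 6.05%, the TATA box TATAAA in 3.80% against 12.97% and the cAMP response element TGACGTCA in 1.27% against 1.62%. The E2F motifs TTTCGCGC and TTTGGCGC were in none of the 79, against 0.255% and 0.437% of all promoters. These matches on either strand are a description of the letters and no measurement of binding.

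**Figure D2:**
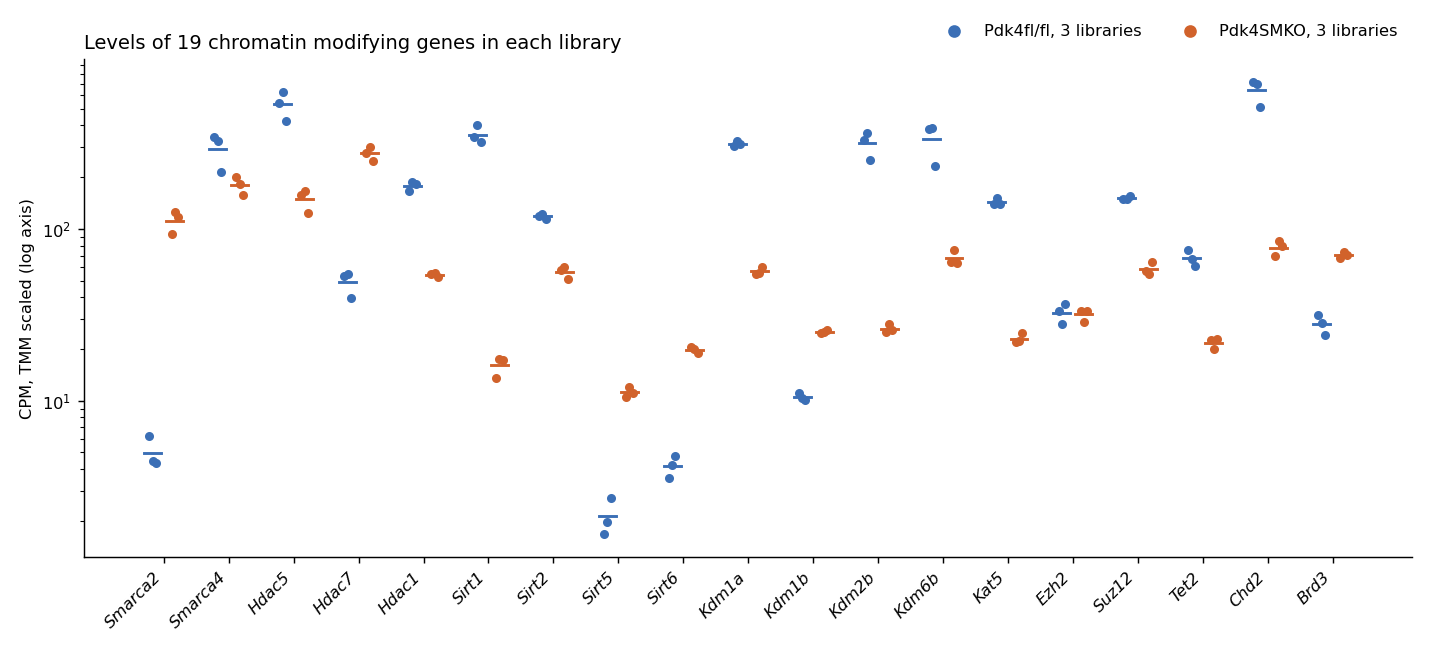
Level of 19 chromatin genes in each library, in TMM-scaled CPM on a log axis, with Pdk4fl/fl in blue and Pdk4SMKO in orange, points for the 3 libraries of a genotype and a line for their mean. The genotypes are apart in every gene drawn except Ezh2, with Smarca2 rising from 4.99 to 112 CPM and Sirt1 falling from 354 to 16.1 CPM. Levels of different genes are not scaled to length.

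Of the 12 tested Smarc genes, 5 were called higher and 0 lower, 41.7% against 59.3% of all genes. On the adjusted p alone, 7 were higher and 3 lower, 83.3% against 79.1% of all genes. Of the 5 called, 4 encode core or accessory subunits without ATPase activity. Smarcd2, which encodes BAF60B, was at 18.3, 16.4 and 16.6 CPM in Pdk4fl/fl and 58.7, 64.5 and 58.0 CPM in Pdk4SMKO libraries (log2 fold change 1.82, SE 0.13, adjusted p = 5.50e-07). Smarcc1 and Smarcc2, which encode the scaffold proteins BAF155 and BAF170, rose by log2 fold changes of 1.25 and 1.07, and Smarcd1, which encodes BAF60A, by 1.17. The genotypes did not overlap in any of these 4 genes, and without Pdk4fl/fl library 3 the estimate of Smarcc2 was 0.96, under the limit. Smarcc1 and Smarcc2 kept their proportion, with a log2 ratio within a library of -0.84 ± 0.16 in Pdk4fl/fl and -0.67 ± 0.21 in Pdk4SMKO cells and overlapping ranges. Within the Smarcd subunits, Smarcd2 went from 35.7% ± 1.04 to 53.8% ± 1.65 of the length-scaled reads while Smarcd3, which encodes BAF60C, went from 28.1% ± 4.19 to 11.5% ± 2.63. Smarcb1, the core subunit also known as SNF5, had overlapping levels (log2 fold change 0.06, SE 0.12, adjusted p = 0.647). Smarca5, the ISWI ATPase, was at -0.69 (SE 0.11), under the 2-fold limit. Smarcc1 overlaps Dhx30 in the table and Smarcd3 overlaps Chpf2, and the use of strand in the counting is not given in the sources used here.

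In a list of 16 partners of the BAF and ISWI complexes, 15 were tested, of which 4 were higher and 1 lower, 33.3% against 59.3% of all genes. Arid1b (1.23) and Arid2 (1.84), DNA-binding subunits, Pbrm1 (1.73), the bromodomain subunit of the PBAF form, and Bcl7a (1.47) rose, and Bcl7b fell by 1.46 on the log2 scale.

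Class IIa HDACs, which bind MEF2 factors and leave the nucleus when phosphorylated, were called in opposite directions, Hdac5 lower and Hdac7 higher. Hdac5 was at 543, 624 and 424 CPM in the Pdk4fl/fl libraries and 158, 167 and 124 CPM in the Pdk4SMKO libraries, a log2 fold change of -1.83 (SE 0.17, adjusted p = 4.83e-06). Hdac7 was at 53.2, 54.7 and 39.7 CPM against 277, 300 and 249 CPM, a log2 fold change of 2.48 (SE 0.15, adjusted p = 2.49e-07). Neither gene overlapped between genotypes. Per length, Hdac5 went from 83.9% ± 0.957 to 22.8% ± 1.33 of the class IIa reads and Hdac7 from 13.8% ± 0.618 to 74.3% ± 1.02. The summed level of Hdac4, Hdac5 and Hdac7 was 72.0 ± 13.5 RPKM in Pdk4fl/fl and 74.5 ± 7.69 in Pdk4SMKO cells, with overlap, and 1.57-fold higher in Pdk4SMKO cells without overlap when scaled by library size alone. Hdac4 had overlapping levels (26.0 ± 7.74 against 33.0 ± 1.83 CPM, adjusted p = 0.151), and Hdac9, with 0, 3 and 1 counts against 8, 10 and 13, did not pass the filter. Hdac7 overlaps Slc48a1 in the table. Hdac10, of class IIb, was called higher at 1.04, just past the limit, and was at 0.93, 0.97 and 1.00 without Pdk4fl/fl library 1, Pdk4fl/fl library 2 and Pdk4SMKO library 1, and Hdac11, of class IV, was at -0.75 without a call.

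In class I, Hdac1 and Hdac2, the interchangeable catalytic subunits of the Sin3, NuRD and CoREST complexes, differed in opposite directions on the adjusted p. Hdac1 was at 167, 188 and 182 CPM in Pdk4fl/fl and 54.5, 55.3 and 52.8 CPM in Pdk4SMKO libraries, a log2 fold change of -1.72 (SE 0.11, adjusted p = 3.56e-07). Hdac2 was at 59.3, 49.3 and 68.1 CPM against 78.6, 81.7 and 89.5 CPM, a difference of 0.50 that did not reach 2-fold (adjusted p = 0.00793). Per length, Hdac1 made up 79.7% ± 3.01 of the pair in Pdk4fl/fl and 45.8% ± 2.16 in Pdk4SMKO cells, and the sum of the pair was 1.89-fold lower without overlap, or 1.24-fold lower with library size alone. Of 15 partners of these deacetylase complexes, 2 were higher and 4 lower, 40% against 59.3% of all genes. Sin3a, which rose by 1.90, was among the higher, and Sin3b (-1.62), Mta1 (-1.24), Mta2 (-1.26) and Gatad2b (-2.42) fell. Hdac3, another class I enzyme, had overlapping levels (48.7 ± 4.71 against 56.96 ± 3.23 CPM).

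Among the sirtuins, the largest fall of all chromatin genes was that of Sirt1, the nuclear NAD+-dependent deacetylase (chromosome 10 from 65092512 to 65163403, - strand). Sirt1 was at 341, 402 and 320 CPM in the Pdk4fl/fl libraries and 13.5, 17.5 and 17.3 CPM in the Pdk4SMKO libraries. The genotypes were far apart, 354 ± 42.9 against 16.1 ± 2.25 CPM (log2 fold change -4.46, SE 0.16, adjusted p = 1.54e-08). Sirt2, a mostly cytoplasmic deacetylase, also fell, from 119 ± 4.35 to 56.0 ± 4.47 CPM (-1.08, SE 0.12). The other calls were all of higher genes. Sirt5, a mitochondrial desuccinylase, was at 1.67, 1.98 and 2.72 CPM against 10.5, 11.9 and 11.1 CPM (2.40, SE 0.24, adjusted p = 6.82e-06). Sirt6, a nuclear deacetylase, was at 3.53, 4.23 and 4.77 CPM against 20.6, 20.1 and 18.8 CPM (2.25, SE 0.18, adjusted p = 1.49e-06). Sirt4, of the mitochondria, was at 0.867, 1.21 and 2.35 CPM against 6.85, 8.66 and 7.16 CPM (2.38, SE 0.35, adjusted p = 1.12e-04). Sirt7, of the nucleolus, was called at 1.03 (SE 0.16) and was at 0.87 without Pdk4fl/fl library 3. Sirt3, the main mitochondrial deacetylase, was at 6.69 ± 0.892 against 4.31 ± 1.01 CPM (-0.63, adjusted p = 0.0388) without a call.

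Per length, the sirtuin makeup went from 59.6% ± 2.47 to 6.18% ± 0.762 for Sirt1, from 1.82% ± 0.557 to 21.6% ± 0.603 for Sirt5, from 1.36% ± 0.248 to 14.6% ± 0.945 for Sirt6 and from 2.89% ± 0.402 to 13.6% ± 0.394 for Sirt7. Sirt2 held 29.9% ± 1.46 and 32.1% ± 1.84, with overlap. The sirtuin total was 111 ± 8.81 RPKM in Pdk4fl/fl and 48.9 ± 2.90 in Pdk4SMKO cells, 2.28-fold lower without overlap (exact two-sided permutation p = 0.1, the smallest that 3 libraries against 3 can give), and 1.497-fold lower with library size alone. Sirt2 overlaps Nfkbib, Sirt3 overlaps Psmd13 and Ric8a, and Sirt7 overlaps Mafg in the table. Among 15 tested genes of cofactor supply, 3 were higher and 4 lower, 46.7% against 59.3% of all genes. The NAD+ synthesis genes Nmnat1 (-1.72) and Nmnat2 (-1.30) were among the lower. Idh1, which makes 2-oxoglutarate in the cytosol, was among the higher at 3.78.

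**Figure D3:**
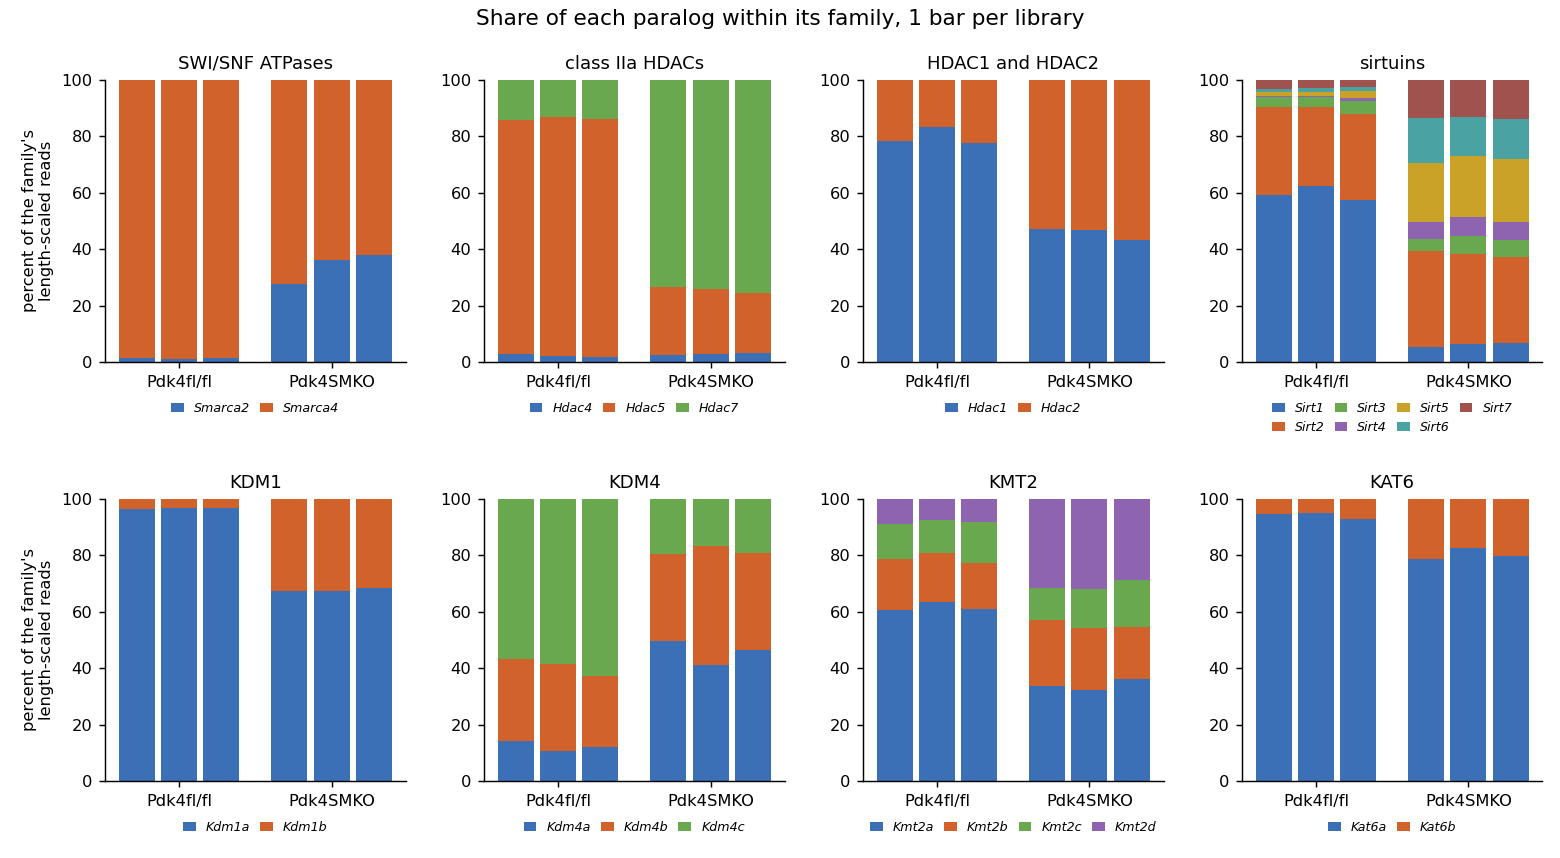
Share of each paralog in the length-scaled reads of its family, in percent, with 1 bar per library (3 Pdk4fl/fl bars on the left and 3 Pdk4SMKO bars on the right of each panel). Hdac7 went from 13.8% to 74.3% of the class IIa HDACs, Smarca2 from 1.41% to 34.0% of the SWI/SNF ATPases and Sirt1 from 59.6% to 6.18% of the sirtuins, and bars of the same genotype look alike.

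The acetyltransferases had 4 calls of 9, all lower, or 44.4% called against 59.3% of all genes. Scaling by library size alone left 1 higher call, Kat6b at 1.36, and 2 lower, Kat5 and Kat7, 33.3% against 60.9% of all genes. Kat5 (TIP60), which acetylates H4 and H2A and acts in DNA repair, was at 140, 151 and 139 CPM in the Pdk4fl/fl libraries and 22.0, 22.3 and 24.6 CPM in the Pdk4SMKO libraries (log2 fold change -2.64, SE 0.12, adjusted p = 4.23e-08). Kat7 (HBO1, -1.81), Kat6a (MOZ, -1.25) and Kat8 (MOF, the H4K16 enzyme, -1.15) also fell. Kat6b, the paralog of Kat6a, was at 26.6 ± 1.33 against 44.9 ± 4.02 CPM, below the 2-fold limit, and its share of the pair went from 5.92% ± 1.13 to 19.7% ± 2.04. The general coactivators Ep300 and Crebbp had overlapping levels, 114 ± 27.6 against 136 ± 21.7 CPM and 66.6 ± 17.8 against 52.1 ± 3.72 CPM, and their adjusted p-values in the edgeR test were 0.251 and 0.106. Kat2a (GCN5) was at 28.3 ± 4.88 against 36.1 ± 3.64 CPM and Kat2b (PCAF) at 88.1 ± 6.79 against 69.6 ± 4.08 CPM, without calls. With library size alone, the estimates of Crebbp and Kat2b were positive, 0.24 and 0.27. Kat5 overlaps Rnaseh2c in the table.

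The histone demethylases had 5 lower and 2 higher calls among 14 tested genes, with a median log2 fold change of -0.81. These calls are 50% of the group, against 59.3% of all genes. With library size alone, the calls became 5 higher and 4 lower, 64.3% against 60.9% of all genes. Kdm2b, which binds CpG islands and recruits a form of Polycomb complex 1, was at 331, 360 and 252 CPM in the Pdk4fl/fl libraries and 25.1, 28.0 and 25.9 CPM in the Pdk4SMKO libraries (log2 fold change -3.58, SE 0.16, adjusted p = 3.97e-08). Kdm4c, which acts on H3K9 and H3K36, was at 203, 221 and 199 CPM against 24.7, 26.9 and 26.7 CPM (-3.00, SE 0.12, adjusted p = 2.17e-08). Kdm1a (LSD1), the FAD-dependent demethylase of H3K4, was at 303, 325 and 313 CPM against 54.6, 55.3 and 59.8 CPM (-2.47, SE 0.11, adjusted p = 4.22e-08). All of these falls left the genotypes far apart. Kdm6b (JMJD3), which removes H3K27 methylation, was at 380.5, 387 and 231 CPM in Pdk4fl/fl libraries and 64.2, 74.9 and 62.9 CPM in Pdk4SMKO libraries (-2.31, SE 0.20, adjusted p = 2.35e-06). Kdm5b, of the H3K4 demethylases, fell just past the limit at -1.01 and was at -0.94 and -0.91 without Pdk4fl/fl library 2 and without Pdk4SMKO library 1. Kdm1b (LSD2), the paralog of Kdm1a, was at 11.1, 10.4 and 10.1 CPM against 24.8, 25.2 and 25.7 CPM and was called higher (1.26, SE 0.14, adjusted p = 1.59e-05), and the low-count Kdm8 was called higher at 1.18. Kdm4d, with no counts in any Pdk4fl/fl library and 12, 10 and 8 in the Pdk4SMKO libraries, was not tested.

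The leading paralog differed between genotypes in the Kdm2 and Kdm4 genes. Per length, Kdm2b went from 71.5% ± 1.46 to 20.8% ± 1.42 of the Kdm2 pair, and Kdm2a, at 163 ± 21.9 against 131 ± 12.1 CPM with overlap, took the rest. Kdm4c went from 59.3% ± 3.12 to 18.6% ± 1.52 of the Kdm4 genes and Kdm4a from 12.2% ± 1.72 to 45.8% ± 4.28. Kdm4b held 28.5% ± 2.92 and 35.6% ± 5.74, with overlap. In Pdk4SMKO library 2 Kdm4b led Kdm4a, at 41.9% against 41.2%. Kdm1b went from 3.48% ± 0.242 to 32.4% ± 0.708 of the Kdm1 pair, in which Kdm1a led in both genotypes. The totals were lower in Pdk4SMKO cells without overlap, by 3.88-fold for the Kdm1 pair, 3.46-fold for the Kdm2 pair and 2.50-fold for the Kdm4 genes, or 2.55-fold, 2.28-fold and 1.64-fold with library size alone. Kdm1a overlaps Luzp1, Kdm1b overlaps Tpmt and Kdm2b overlaps Rnf34 in the table.

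Among the H3K4 and other lysine methyltransferases the calls ran both ways. Kmt2d (MLL4), which marks enhancers, rose from 62.1, 48.2 and 34.2 CPM to 152, 163 and 127 CPM (log2 fold change 1.61, SE 0.20, adjusted p = 3.84e-05). Kmt2a (MLL1) was at 346, 329 and 210 CPM against 136, 137 and 133 CPM and fell (-1.13, SE 0.18, adjusted p = 1.86e-04). Kmt2a made up 61.5% ± 1.5 of the length-scaled reads of Kmt2a to Kmt2d in Pdk4fl/fl and 34.0% ± 1.99 in Pdk4SMKO cells, while Kmt2d went from 8.36% ± 0.664 to 30.8% ± 1.68. The sum of the 4 genes overlapped between genotypes under TMM and under library size alone. Setd7, which methylates H3K4 and other proteins, rose from 46.0 ± 4.46 to 154 ± 18.3 CPM (1.75, SE 0.14, adjusted p = 1.16e-06). Setd1b rose by 1.31, so that its share of the Setd1 pair went from 35.7% ± 2.35 to 66.2% ± 3.32, and Setd2, the enzyme that trimethylates H3K36, fell by 1.21 on the log2 scale. Setd4 was called higher at 2.51, but the low counts gave 0.0667, 0.110 and 1.21 CPM against 2.77, 2.14 and 2.50 CPM, and its estimate was 4.67 without Pdk4fl/fl library 3 and 2.01 without library 1 or without library 2.

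Polycomb repressive complex 2, which writes H3K27 methylation, had 1 call among 4 tested genes, 25% against 59.3% of all genes. That call was lost with library size alone. Suz12, a core structural subunit, was at 149, 149 and 155 CPM in Pdk4fl/fl and 57.1, 54.8 and 64.2 CPM in Pdk4SMKO libraries (log2 fold change -1.36, SE 0.12, adjusted p = 2.10e-06). The catalytic subunit Ezh2 was at 33.1, 27.9 and 36.4 CPM against 33.4, 28.7 and 33.4 CPM, with overlap (-0.03, SE 0.14, adjusted p = 0.87), and its sign turned with the scaling. Ezh1, the other catalytic subunit, was at 37.3 ± 1.58 against 27.2 ± 2.32 CPM (-0.46) and Eed, which reads the mark, at 24.8 ± 4.47 against 16.7 ± 1.5 CPM (-0.57), both without a call and with positive estimates (0.15 and 0.04) when scaled by library size alone. The log2 ratio of Ezh2 to Ezh1, which no scaling touches, was -0.21 ± 0.17 in Pdk4fl/fl and 0.23 ± 0.23 in Pdk4SMKO libraries, without overlap. Of 15 Polycomb partners, 3 were higher and 4 lower, 46.7% against 59.3% of all genes. Cbx2 (1.79) and Ring1 (1.13) of complex 1 were among the higher. Rnf2 (-1.43), the paralog of Ring1, Pcgf2 (-1.88), Phf1 (-1.77) and Rbbp4 (-2.34) fell.

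The DNA-modifying enzymes had 1 call. It was 1 of the 3 tested Tet genes, 33.3% against 59.3% of all genes, and the 2 tested Dnmt genes had none. Tet2, which oxidizes 5-methylcytosine, fell from 75.1, 66.8 and 60.5 CPM to 22.7, 19.96 and 22.8 CPM (log2 fold change -1.63, SE 0.13, adjusted p = 1.76e-06). Tet3 was at 68.0 ± 16.7 against 39.0 ± 7.79 CPM (-0.80, SE 0.20) and Tet1 at 2.66 ± 0.54 against 2.88 ± 0.664 CPM, with overlap. Tet3 was called at -1.01 without Pdk4fl/fl library 3. The Tet total was 2.06-fold lower without overlap, or 1.36-fold lower with overlap when scaled by library size alone. The maintenance methyltransferase Dnmt1 was at 143, 129 and 87.4 CPM against 106, 76.9 and 67.6 CPM, with overlap (-0.52, and 0.08 with library size alone), and the de novo enzyme Dnmt3a was just short of the limit at -0.95 (SE 0.14), with a call at -1.06 without Pdk4fl/fl library 3. Of 7 tested genes for the maintenance of DNA methylation, Uhrf2 (-2.27) and Hells (-1.93) were lower and none was higher, 28.6% against 59.3% of all genes. Dnmt3l, with 1 count in all, was not tested.

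None of the 6 tested arginine methyltransferases was called under TMM, against 59.3% of all genes. On the adjusted p alone 4 of them passed, 2 higher and 2 lower, 66.7% against 79.1% of all genes. Prmt2 (1.19) and Prmt7 (1.25) were called higher with library size alone, 33.3% of the group against 60.9% of all genes. Prmt5, which makes symmetric dimethylarginine, was at 87.2 ± 3.23 against 45.4 ± 1.95 CPM (-0.94, SE 0.11, adjusted p = 2.51e-05), just inside the 2-fold limit, and Prmt7 at 20.01 ± 2.16 against 31.3 ± 3.16 CPM (0.65, SE 0.15). Prmt8 had no counts in any library. Prmt7 overlaps Smpd3 in the table.

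The CHD remodelers had 3 lower calls of 8, 37.5% against 59.3% of all genes. On the adjusted p alone 4 were higher and 3 lower, 87.5% against 79.1% of all genes. The median over the 8 was 0.36 on the log2 scale. When scaled by library size alone, the calls became 4 higher, Chd3 (1.45), Chd4 (1.37), Chd8 (1.52) and Chd9 (1.52), and 2 lower, since Chd6 lost its call. Under that scaling 75% of the group was called, against 60.9% of all genes. Chd2, which loosens chromatin at active genes, was at 716, 696 and 510 CPM in the Pdk4fl/fl libraries and 69.2, 84.6 and 79.5 CPM in the Pdk4SMKO libraries (log2 fold change -3.04, SE 0.17, adjusted p = 1.12e-07). Chd5, known mainly from neurons, fell from 12.1, 11.5 and 6.43 CPM to 0.966, 0.299 and 0.540 CPM (-4.03, SE 0.42, adjusted p = 8.83e-06). Chd8, which binds β-catenin, was at 68.3 ± 15.1 against 129 ± 9.59 CPM (0.92, SE 0.16), just short of the limit, with a call at 1.08 without Pdk4fl/fl library 1. Chd3 and Chd4, the NuRD ATPases, kept their ratio, with log2 values of 0.19 ± 0.03 and 0.27 ± 0.12 that overlapped. Chd2 overlaps 1810026B05Rik in the table.

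The bromodomain readers of acetylated histones had 2 higher and 2 lower calls among 7 tested genes, 57.1% against 59.3% of all genes. With library size alone, 2 were higher and 0 lower, 28.6% against 60.9% of all genes. Brd2, a BET protein that carries the signal of acetylated histones to the transcription machinery, was at 886, 927 and 743 CPM in Pdk4fl/fl and 276, 299 and 269 CPM in Pdk4SMKO libraries (log2 fold change -1.60, SE 0.13, adjusted p = 1.61e-06). Its paralog Brd3 went the other way, from 31.4, 28.5 and 24.3 CPM to 68.2, 73.4 and 70.5 CPM (1.33, SE 0.13, adjusted p = 6.68e-06). The genotypes did not overlap in either gene.

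Because a ratio of 2 genes within a library does not depend on the scaling between libraries, paralogs were also compared as pairs. Of 35 pairs listed, 29 could be compared. The log2 ratio did not overlap between genotypes in 25 of the 29, and in 19 of them it differed at least 2-fold. These are 86.2% and 65.5% of the pairs, against 80.4% and 70.6% of every pair that the genes tested can form, so that the share of paralog pairs whose ratio differed lay near the background. With 3 libraries against 3, the exact two-sided permutation test cannot give a p under 0.1, and the 25 pairs reached that value (0.116 after Benjamini-Hochberg adjustment over the 29). In 3 pairs the members were called in opposite directions, among them Hdac5 and Hdac7, and Kdm1a and Kdm1b. In 11 pairs they differed in opposite directions on the adjusted p alone. The share of such pairs among all pairs of genes tested was not computed, so neither count can be read as particular to paralogs. The widest difference was that of Smarca4 over Smarca2, from 5.86 ± 0.29 to 0.69 ± 0.36, a difference of -5.17 on the log2 scale. The ratio of Hdac5 to Hdac7 went from 3.43 ± 0.08 to -0.89 ± 0.10 and that of Kdm1a to Kdm1b from 4.89 ± 0.10 to 1.16 ± 0.05. The ratio of Kdm2a to Kdm2b changed sign from -0.94 ± 0.10 to 2.31 ± 0.13 and that of Hdac1 to Hdac2 from 1.61 ± 0.28 to -0.62 ± 0.13. The 4 pairs whose ratios overlapped included Smarcc1 and Smarcc2, Chd3 and Chd4, and Chd8 and Chd9.

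**Figure D4:**
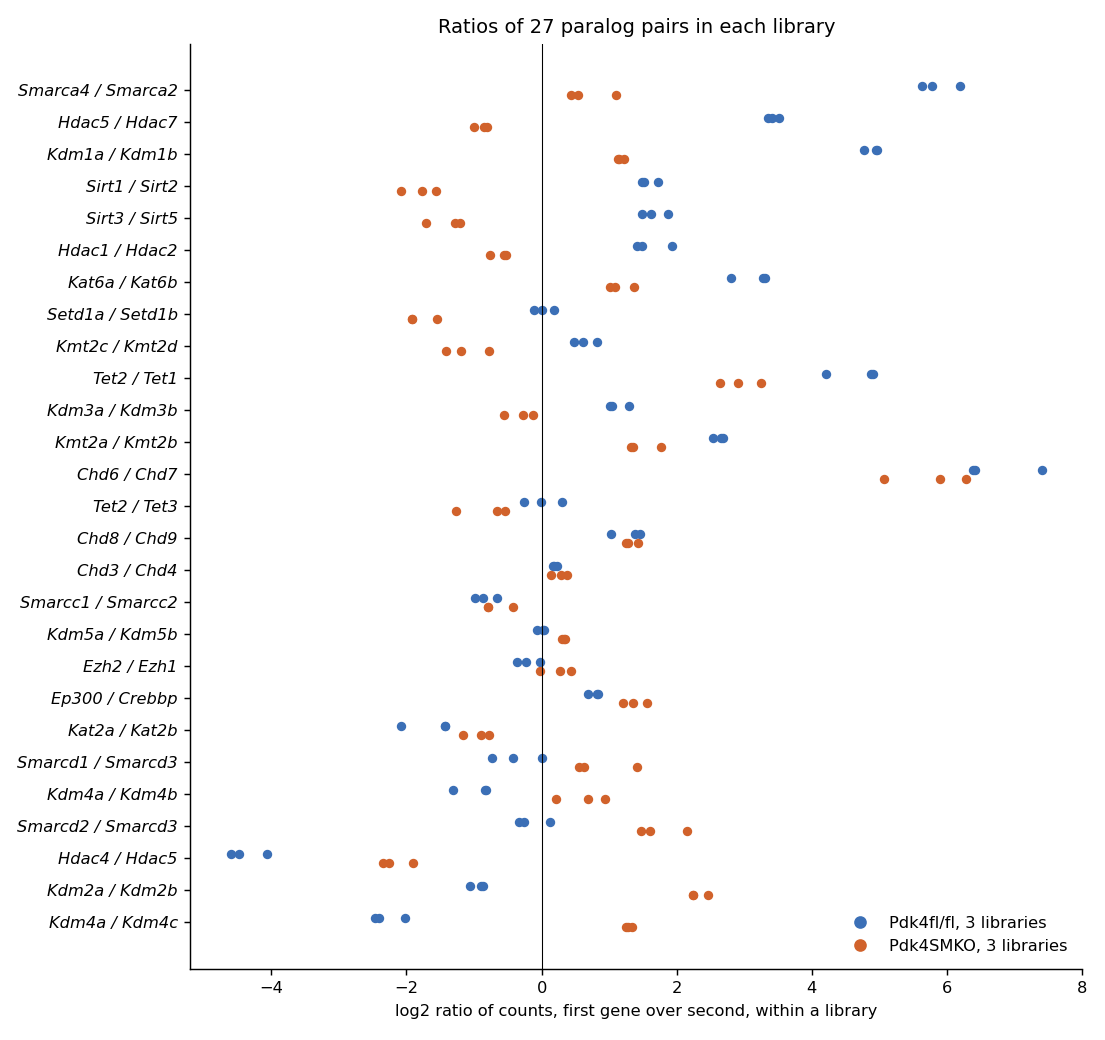
Log2 ratio of the counts of the gene named before the slash over the gene after it within each library, for 27 of the 29 paralog pairs compared, with blue points for the 3 Pdk4fl/fl and orange points for the 3 Pdk4SMKO libraries and pairs sorted by the difference. The genotypes are apart in 24 of the pairs drawn, from -5.17 for Smarca4 over Smarca2 to 3.58 for Kdm4a over Kdm4c. Ratios are of counts, not scaled to gene length, so only their change between genotypes can be read.

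Beside the 97 genes, 79 other chromatin genes were listed by function, of which 75 were found by name and 74 were tested: 13 were higher and 15 lower, at a median of -0.29 on the log2 scale. The share called was 37.8% of the 74, below the 59.3% of all genes. Among them 14 further methyltransferases had 3 higher calls, Ehmt1 (1.13), Nsd1 (1.90) and Setmar (1.41), and 3 lower calls, Suv39h2 (-1.89), Smyd3 (-1.45) and Carm1 (-1.17). The 8 partners of the H3K4 methyltransferases had 1 call each way, Hcfc1 at 1.17 and Rbbp5 at -1.28.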

How the data were processed

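Per the labels and the study's methods, total RNA of the cells was sequenced in 6 libraries, and the authors deposited raw counts of reads per gene, whole numbers without normalization. The labels name the GRCm39 build, while most gene identifiers are those of the C57BL/6NJ annotation, so coordinates are given as in the table. The aligner, the counting program and the use of strand are not given in the sources used here. The labels and the methods name different library kits.

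In R 4.3.3, edgeR 4.0.16 served to filter (filterByExpr), scale (TMM) and test the counts by quasi-likelihood with genotype as the sole term, and p-values were adjusted by Benjamini-Hochberg across 14085 genes. Calls needed an adjusted value below 0.05 and a difference of 2-fold or more. CPM are TMM-scaled counts, and RPKM divides them by the deposited gene length. Pair ratios used a pseudocount of 0.5 counts. The fit was tested on simulated data in which few genes changed, evenly in both directions. That simulation cannot check the scaling between libraries as different as those here. Alternatives included DESeq2 1.42.0, other scalings and filters, each library left out and a replicate block. A count of 3 corresponds to 0.132 to 0.227 CPM, for counting error alone.

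The chromatin genes and the lists were chosen with earlier results of these data known. The rule for genes described one by one took enzymes with known roles in smooth muscle or at the core of a mark, the 8 strongest rises and 8 strongest falls (adjusted p below 0.05, a mean of 5 CPM or more in either genotype, no overlap), the ends of each group, pairs with opposite calls and genes that failed the filter. The other genes named were chosen after their values were seen. A few genes that enter the counts are not reported here by name.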

Additional observations from a re-analysis of the deposited data

How the results depend on the processing

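Counts of calls stayed within 1.5 times their value with RLE or upper-quartile factors, DESeq2, other filters, protein-coding genes alone and an adjusted p under 0.01. They moved further with library size alone (32 chromatin genes higher and 12 lower, and 2390 of all genes lower) and on the adjusted p alone (32 higher and 43 lower). Leaving out each library gave 18 to 22 higher and 20 to 26 lower chromatin genes, and 35 of the 42 calls held in all 6 such fits. The calls lost were those of Brd1 (0.91) and Sirt7 (0.87) and Smarcc2 (0.96) without Pdk4fl/fl replicate 3, Chd6 (-0.94 and -0.90) without Pdk4fl/fl replicate 1 or Pdk4SMKO replicate 1, and Hdac10, Kdm5b and Setd5 (lowest sizes 0.93, -0.91 and -0.93). A fit with the replicate block called 19 higher and 23 lower chromatin genes, 41 of the 42 calls among them, and it changed no call of a gene described one by one by the rule. The replicate numbers did not pair the libraries, since deviations of same-numbered libraries correlated at 0.0505, 0.113 and 0.261. With library size alone the estimates of Crebbp (0.24), Dnmt1 (0.084), Eed (0.043), Ezh1 (0.15), Ezh2 (0.58) and Kat2b (0.27) turned positive. Ezh2 also turned with upper-quartile factors (0.18), without a filter (0.022) and when every library had to hold 10 counts (0.072), and leaving out a library gave -0.11 to 0.051 for Ezh2 and -0.072 to 0.27 for Tet1. The cause of the remaining changes was not tested. Low counts kept Hdac9, Kdm4d, Dnmt3l and Prmt8 from the test.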

Other observations

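The choice of genes left out 5 chromatin genes on the X chromosome, described here because Xist differed between the genotypes. Kdm5c, an H3K4 demethylase, was at 320 against 122 CPM (log2 fold change -1.39, SE 0.13) and was the only one called. Kdm6a, a demethylase of H3K27, was at 42.3 against 32.9 CPM (-0.36, SE 0.16), Hdac6 at 41.3 against 33.4 CPM (-0.31, SE 0.12) and Hdac8 at 10.9 against 12.9 CPM (0.24, SE 0.18), none of them past the 2-fold limit. Smarca1, an ISWI ATPase, had no counts in the Pdk4fl/fl libraries and 21, 7 and 11 in the Pdk4SMKO libraries.

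Some chromatin genes carry another name or none in the table and were matched by its descriptions. Those of Kat14 (1.16, SE 0.16) and Kmt5c (1.84, SE 0.22) were called higher, and those of Chd1 (-0.44, SE 0.14), Setd3 (0.26, SE 0.12) and Kmt5b (-0.08, SE 0.17) were not called. Dnmt3b had 6, 12 and 5 counts in Pdk4fl/fl and 14, 2 and 16 in Pdk4SMKO libraries. A row described as Prmt1 had 3, 8 and 6 against 4, 3 and 8 counts. Neither was tested, and the groups of DNA and arginine methyltransferases above do not include them.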
